A study of Mus musculus with 12 samples.

Results

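The response of mouse CD4+ T cells to receptor stimulation between 8 h and 24 h was compared between wild-type (WT) cells and cells in which Ddx55 was knocked out (KO). Ddx55 encodes a DEAD-box helicase that acts on RNA. Of the 12 RNA sequencing libraries of the series, the 8 taken at 8 h and at 24 h carry this comparison: WT at 8 h, WT at 24 h, KO at 8 h and KO at 24 h, with 2 libraries each. All 8 come from naive CD4+ T cells of spleen and pLN that were stimulated by plate-bound anti-CD3 (5 ug/ml) together with anti-CD28 (2.5 ug/ml), antibodies that trigger the T cell receptor and its costimulation. The other 4 libraries, from cells before stimulation, entered the filter on low counts, the scaling factors and the estimate of the spread between replicates. They did not enter the comparison itself. The sources used here do not give the knockout allele, its deleted exons or the strain, age and sex of the mice. Whether replicate libraries stem from different mice is not in the labels, and p-values then measure only the spread between these samples, which may be technical.

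The quantity studied is the interaction of genotype and time, (KO 24 h minus KO 8 h) minus (WT 24 h minus WT 8 h), on a log2 scale. A negative value means that a gene gained less, or lost more, in KO than in WT cells, and a value of -1 means that the KO change was 1 log2 unit below the WT change. The unstimulated cells do not enter this contrast. Levels are given in CPM, gene counts scaled to the size of the library, for each library with replicate 1 first, and as mean ± SD (n = 2) for genes described more briefly. Log2 changes are given ± SE, with p-values from edgeR's quasi-likelihood test adjusted over 15679 genes by the Benjamini-Hochberg method. A gene is said to have risen, fallen or changed only where that adjusted p was under 0.05.

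In this interval a stimulated naive T cell moves from growth to division. In the first hours it enlarges, makes ribosomes and turns on cytokine receptors. It then loads the MCM helicase on replication origins, and cyclin-dependent kinases and E2F factors start S phase. Genes of mitosis follow, many of them through a promoter element called the cell cycle genes homology region (CHR). Lipid and glucose metabolism are raised to supply membranes and precursors, and the p53 pathway can hold the cycle by inducing the inhibitor p21.

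Ddx55 RNA was lower in both KO groups, and no difference in its course over time passed the test. The gene (ENSMUSG00000029389, GRCm38 chromosome 5, 124552864 to 124569660, plus strand) stood at 68.8 and 64.1 CPM in WT cells at 8 h and at 52.9 and 55.2 CPM at 24 h. In KO cells it stood at 18 and 17.1 CPM at 8 h and at 14.7 and 14.5 CPM at 24 h. Its interaction was 0.03 ± 0.15 (adjusted p = 0.924), with a 95% interval from -0.28 to 0.35. Gene counts in the 8 libraries lay between 17333276 and 18831531, a range that sets the counting precision of what follows.

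The T cell label held: all 10 markers of T cells were tested, their summed level lay between 3428 and 4877 CPM in the 8 libraries, and 0 of 10 passed in the interaction by edgeR. The unadjusted p was under 0.05 for Cd5 and Lat, both of which passed in DESeq2. Genes of basophils and mast cells set the KO libraries apart. The 14 listed genes summed to 12.2 to 16.6 CPM in WT cells at 8 h and 12 to 12.2 CPM at 24 h, against 142 and 443 CPM in KO cells at 8 h and 202 and 723 CPM at 24 h, so that the KO libraries numbered 2 held the most at both times. Neutrophil markers (0.595 to 1.87 CPM in WT and 18.3 to 88.3 CPM in KO libraries) and eosinophil markers (0.325 to 3.53 and 31.7 to 106 CPM) were also higher in every KO library than in any WT library. The same held for summed markers of regulatory T cells (918 to 1062 and 1219 to 1472 CPM) and of monocytes, macrophages and dendritic cells (43.4 to 51.3 and 68.2 to 89.7 CPM). It held as well for CD8 T and NK cell markers, at 24.55 to 32.0 CPM in WT libraries. In KO libraries these stood at 64.1 and 44.8 CPM at 8 h and at 165 and 104 CPM at 24 h. In the interaction 0 of the 13 tested basophil and mast cell, 0 of 13 neutrophil and 0 of 7 eosinophil markers passed by edgeR, with 1, 0 and 1 at an unadjusted p under 0.05 and 0 in DESeq2. Of the other lists, 0 of 3 B cell, 0 of 12 monocyte and dendritic cell, 0 of 8 erythroid and platelet and 0 of 8 stromal markers passed, with 1, 0, 1 and 1 at an unadjusted p under 0.05, and Itga2b alone of these passed in DESeq2. Klrd1 was the only one of 12 CD8 T and NK cell markers that passed, and Tnfrsf18 and Il2ra were those of 7 regulatory T cell markers, and each of these 3 calls was lost without at least 1 single library (KO 24 h replicate 1 and WT 24 h replicate 1 for all 3). These calls are those of the main edgeR fit. Eomes, another of the 12 CD8 T and NK cell markers, passed in DESeq2 (1.72, adjusted p = 0.00061) and in edgeR with either form of replicate block. Klrc1, of the same list, passed with the replicate number as a block within each genotype. The part of the cell types of these lists in the values below was not tested. As the libraries are bulk samples, fewer cells of a kind and less RNA per cell cannot be told apart in any value below.

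**Figure D1:**
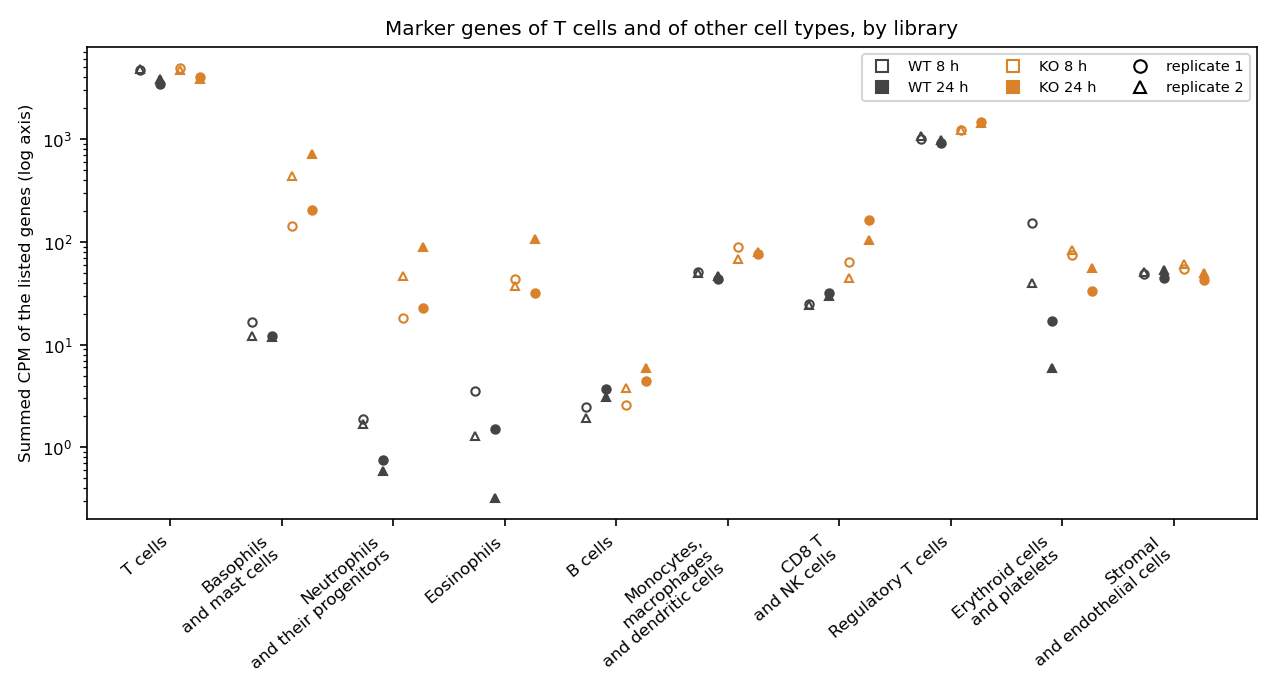
Summed CPM of marker genes (log axis) for T cells and 9 other cell types in each of the 8 libraries, with open symbols for 8 h and filled symbols for 24 h, grey for WT and orange for KO, circles for replicate 1 and triangles for replicate 2. T cell markers lie between 3428 and 4877 CPM in all 8 libraries, while basophil and mast cell markers lie between 142 and 723 CPM in KO libraries and between 12 and 16.6 CPM in WT libraries.

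The response between 8 h and 24 h depended on genotype for 2265 of the 15679 genes tested. The KO change lay below the WT change for 1405 genes (8.96%) and above it for 860 (5.49%). In WT cells 3763 genes (24.0%) rose and 3020 (19.3%) fell from 8 h to 24 h, and in KO cells 2956 (18.9%) rose and 2441 (15.6%) fell. Fewer genes differed between genotypes at the start of the interval than at its end: 298 genes (1.9%) were higher and 117 (0.746%) lower in KO cells at 8 h, against 2799 (17.9%) and 3242 (20.7%) at 24 h. Large differences were more common below the WT change: 761 of the 1405 had an interaction of at least 1 log2 unit and 333 of at least 2, against 281 and 77 of the 860.

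Both genotypes still shared much of the response. Across 9534 genes with a mean CPM of at least 5 over the 8 libraries, Pearson's r between the WT and the KO change was 0.695 and Spearman's rho 0.674. These are descriptions across genes, which are not independent replicates, and the WT and KO changes share no library. The KO changes were smaller, with an SD of 0.676 log2 units against 1.04 in WT cells. Of the 3763 genes that rose in WT cells, 1973 (52.4%) rose in KO cells as well, 110 (2.92%) fell and 1680 (44.6%) did not pass. Of the 3550 genes that moved the same way in both genotypes, 1108 (31.2%) had a 95% interval of the interaction inside 1.5-fold either way, against 3284 (20.9%) of all genes tested. The median interaction of all genes was 0.004, the value that the scaling centres near 0.

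Most of the 1405 genes below the WT change were genes that rose in WT cells: 638 (45.4%) rose in WT cells and did not pass in KO cells, 421 (30.0%) rose in both and 110 (7.83%) rose in WT and fell in KO cells. A further 187 (13.3%) fell in KO cells and did not pass in WT cells. The 860 genes above it were more mixed. Of these, 313 (36.4%) fell in WT cells and did not pass in KO cells, 249 (29.0%) rose in KO cells and did not pass in WT cells, and 75 (8.72%) fell in WT and rose in KO cells. Of the 1405 genes 1291 (91.9%), and of the 860 genes 772 (89.8%), did not pass at 8 h and did so at 24 h in the direction of the interaction. Over all genes 20.7% were lower and 17.9% higher in KO cells at 24 h, against 0.746% and 1.9% at 8 h. The interaction is the 24 h difference minus the 8 h difference. Genes chosen by it therefore tend to differ at either time, and these shares are no test of timing.

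**Figure D2:**
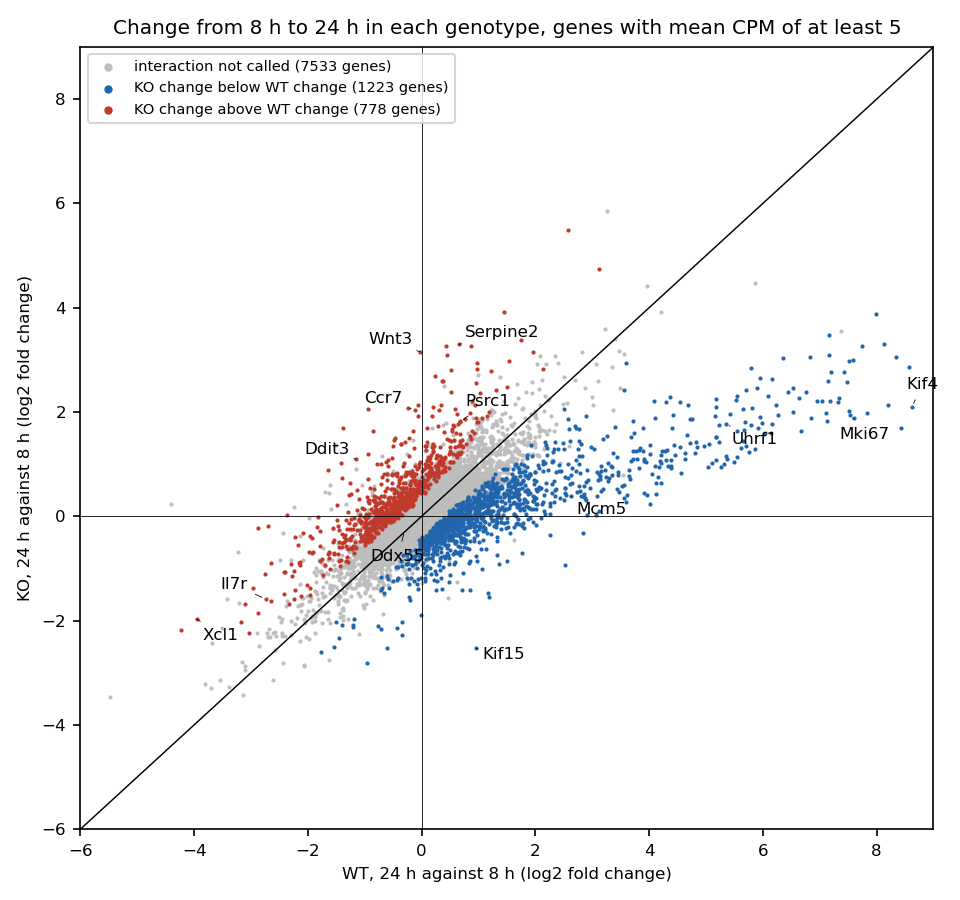
Log2 change from 8 h to 24 h in WT cells (x axis) and in KO cells (y axis) for 9534 genes with a mean CPM of at least 5, with genes past an adjusted p of 0.05 in the interaction in blue (KO change below WT change) and red (above), and a diagonal of equal change. The blue points fan out to the right below the diagonal, with Kif4 at a WT change of 8.62 and a KO change of 2.09, while most red points lie close above the diagonal.

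Genes that license replication origins and form the replication fork rose several-fold less in KO cells. Of 17 genes of origin licensing and the MCM helicase, 14 lay below the WT change and 0 above it, and of 39 replication fork genes all 39 lay below. The median interaction was -2.22 and -2.07. The origin genes had a median change of 2.33 in WT and 0.38 in KO cells, and the fork genes of 2.43 and 0.64, where the median over all genes was 0.0 in WT and 0.018 in KO cells. At 8 h 4 of the origin genes and 2 of the fork genes were already lower in KO cells, where 0.746% of all genes were. At 24 h 14 and 39 were, against 20.7% of all genes. The counts in the interaction ranged from 13 to 14 and from 37 to 39 over all other fits, each library left out in turn included.

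Mcm5, a subunit of the hexameric MCM helicase that unwinds DNA, stood at 140 and 132 CPM in WT cells at 8 h and at 842 and 841 CPM at 24 h. The KO cells went from 97.6 and 92.7 CPM to 124 and 124 CPM. No library overlapped between these groups, and the KO libraries at 24 h lay below the WT libraries at 8 h. The WT change was 2.62 ± 0.10 and the KO change 0.38 ± 0.09, both past the threshold, which gives an interaction of -2.24 ± 0.13 (adjusted p = 8.73e-08). Mcm4 (-2.30 ± 0.12) and Mcm7 (-2.22 ± 0.15) lay beside it. Mcm10 and Cdc6, which activate and load the helicase, had interactions of -4.48 ± 0.36 and -4.37 ± 0.34, and the Mcm10 level went from 0.713 ± 0.151 to 153 ± 11.6 CPM in WT and from 0.781 ± 0.066 to 7.53 ± 0.21 CPM in KO cells.

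The origin licensing factor Cdt1, whose RNA overlaps the predicted gene Gm20388 on the same strand, fell in KO cells while it rose in WT cells, from 56.0 and 62.5 to 166 and 171 CPM in WT and from 54.0 and 50.6 to 30.0 and 27.5 CPM in KO cells (interaction -2.37 ± 0.17). The 3 members that did not pass were Orc3, Orc4 and Orc5, subunits of the origin recognition complex, at -0.13, 0.19 and 0.08. Orc5 rose in both genotypes, by 0.81 in WT and 0.90 in KO cells, with an interval of the interaction from -0.27 to 0.44.

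At the fork, Lig1, the DNA ligase that joins Okazaki fragments, went from 17.9 and 17.1 to 491 and 486 CPM in WT cells. The KO cells went from 13.8 and 15.2 to 33.5 and 33.8 CPM, an interaction of -3.59 ± 0.19 (adjusted p = 4.86e-08). It thus rose in both genotypes, by 4.80 in WT and 1.21 in KO cells. The chromatin assembly subunit Chaf1b reached 95.4 and 92.7 CPM in WT and 7.25 and 7.33 CPM in KO cells at 24 h (interaction -3.32 ± 0.19), and its KO change of 0.27 ± 0.14 did not pass. Pcna, the sliding clamp, rose from 332 ± 0.79 to 833 ± 4.59 CPM in WT and fell from 282 ± 19.3 to 168 ± 1.84 CPM in KO cells.

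**Figure D3:**
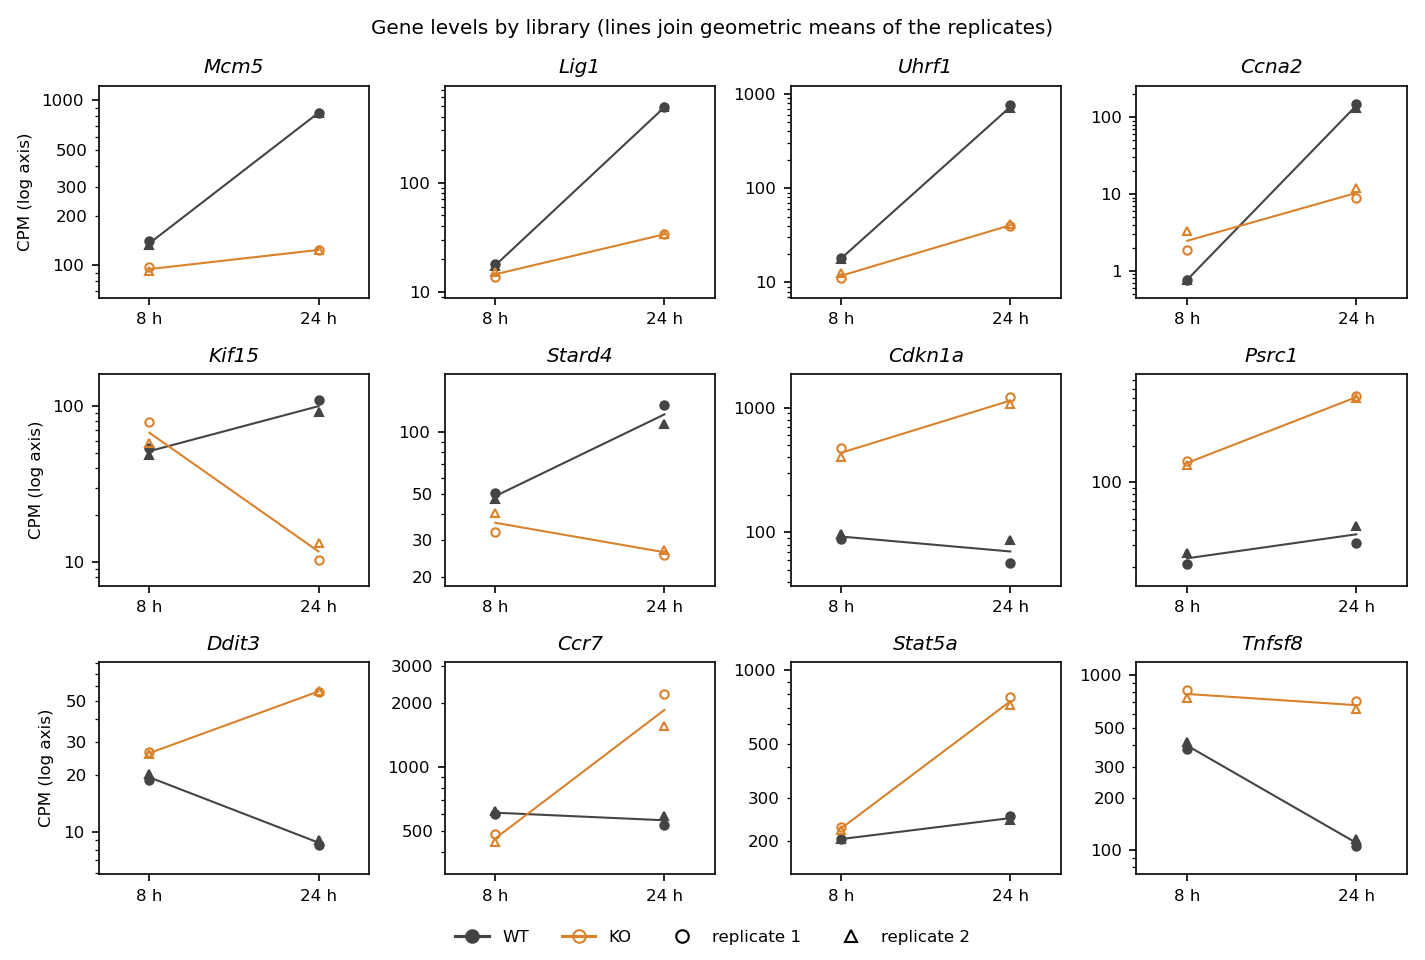
CPM (log axis) of 12 genes in each of the 8 libraries at 8 h and 24 h, WT in grey and KO in orange, circles for replicate 1 and triangles for replicate 2, with lines joining the geometric means of the replicates. Mcm5, Lig1, Uhrf1 and Ccna2 climb more steeply in WT cells, Kif15 and Stard4 move in opposite directions, Psrc1 and Stat5a climb more steeply in KO cells, and Ccr7 rises in KO cells with a WT change that did not pass.

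Promoters of these lists were searched on both strands for the E2F motif written as TTTCCCGC, TTTCGCGC, TTTGCCGC or TTTGGCGC and for the CHR element TTTGAA, in the 300 bases from 250 before to 50 after each RefSeq start (GRCm38.p6). The E2F motif was present in 9 of 19 promoters (47.4%) of the origin genes and in 10 of 37 (27.0%) of the fork genes, against 2.26% of all 32851 promoters and 3.85% of the 13321 promoters of genes tested here. TTTGAA was present in 40 of 60 promoters (66.7%) of mitosis genes, against 17.9% of all promoters and 12.4% of those of genes tested. The third motif searched, the sterol regulatory element TCACNCCAC, was found in 1 of 19 promoters (5.26%) of cholesterol synthesis genes, against 1.24% of all promoters and 1.19% of those of genes tested, and in 3 of 43 (6.98%) of p53 target genes. A match is a description of these letters in this window and shows no binding. The promoters below are those of the members with the smallest interaction p among promoters with a match in 3 of the lists (replication fork, mitosis and cholesterol synthesis). Promoters on 1 chromosome were left out of this choice, and the first matching promoter of a gene was taken (Lig1 has 3 promoters). The capitals mark the motif: E2F in Lig1 (chr7:13278576-13278875, plus strand) and Pold1 (chr7:44548766-44549065, minus strand), the CHR element in Ncapg2 (chr12:116405186-116405485, plus strand) and Kif23 (chr9:61946750-61947049, minus strand), and the sterol element in Hmgcs1 (chr13:119690101-119690400, plus strand).
Lig1: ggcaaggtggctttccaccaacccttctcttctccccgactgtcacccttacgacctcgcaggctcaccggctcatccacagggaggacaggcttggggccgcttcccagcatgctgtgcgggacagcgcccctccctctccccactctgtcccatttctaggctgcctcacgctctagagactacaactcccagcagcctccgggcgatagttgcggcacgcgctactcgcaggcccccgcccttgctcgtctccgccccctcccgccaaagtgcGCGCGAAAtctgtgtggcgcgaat
Pold1: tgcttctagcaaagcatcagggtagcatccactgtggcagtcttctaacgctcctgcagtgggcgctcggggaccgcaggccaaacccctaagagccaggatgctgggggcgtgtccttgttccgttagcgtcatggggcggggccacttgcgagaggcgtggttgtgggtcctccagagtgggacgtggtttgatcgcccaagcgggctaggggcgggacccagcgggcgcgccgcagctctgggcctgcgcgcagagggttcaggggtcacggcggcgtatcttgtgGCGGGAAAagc
Ncapg2: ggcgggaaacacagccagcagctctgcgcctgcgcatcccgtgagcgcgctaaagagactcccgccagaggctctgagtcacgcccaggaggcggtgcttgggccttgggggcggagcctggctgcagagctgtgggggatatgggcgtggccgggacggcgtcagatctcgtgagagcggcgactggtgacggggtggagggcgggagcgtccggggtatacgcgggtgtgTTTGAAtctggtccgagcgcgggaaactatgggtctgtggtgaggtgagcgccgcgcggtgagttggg
Kif23: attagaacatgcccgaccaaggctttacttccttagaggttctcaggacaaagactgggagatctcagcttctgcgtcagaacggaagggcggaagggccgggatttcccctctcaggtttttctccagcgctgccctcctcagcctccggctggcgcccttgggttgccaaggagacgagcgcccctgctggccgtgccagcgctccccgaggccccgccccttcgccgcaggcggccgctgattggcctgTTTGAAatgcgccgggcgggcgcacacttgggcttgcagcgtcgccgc
Hmgcs1: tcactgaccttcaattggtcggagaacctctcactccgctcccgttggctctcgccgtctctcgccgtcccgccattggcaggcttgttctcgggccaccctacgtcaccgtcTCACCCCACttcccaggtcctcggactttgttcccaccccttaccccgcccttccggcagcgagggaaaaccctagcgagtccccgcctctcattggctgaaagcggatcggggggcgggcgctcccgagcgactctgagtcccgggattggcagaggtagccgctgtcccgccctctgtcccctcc

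Both fork genes printed gained less in KO cells. Pold1, the catalytic subunit of DNA polymerase delta, went from 65.3 ± 1.81 to 332 ± 13.1 CPM in WT and from 47.5 ± 0.68 to 67.6 ± 1.69 CPM in KO cells (interaction -1.84 ± 0.14), and the values of Lig1 stand above.

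Of 24 regulators of the G1 to S phase step 15 lay below the WT change (62.5%, against 8.96% of all genes), with a median of -1.23. Above it lay 1 (4.17%, near the 5.49% of all genes). E2f1, an activator of S phase genes, went from 6.51 and 6.15 to 98.0 and 92.6 CPM in WT cells, and from 5.82 and 5.47 to 6.59 and 8.68 CPM in KO cells (interaction -3.47 ± 0.21, adjusted p = 9.14e-08). Ccne1, encoding cyclin E1, went from 3.25 and 3.69 to 111 and 106 CPM in WT and from 2.26 and 1.77 to 5.77 and 4.42 CPM in KO cells (interaction -3.63 ± 0.28). E2f3 rose in WT cells by 2.26 and its KO change of 0.05 ± 0.15 did not pass.

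Ccnd2, encoding cyclin D2, which acts early in G1, stood at 1349 ± 22.6 and 1080 ± 34.0 CPM in WT cells at 8 h and 24 h. In KO cells it stood at 1185 ± 43.1 and 1110 ± 77.1 CPM, an interaction of 0.23 ± 0.18 that did not pass. Rb1, the E2F repressor, rose in both genotypes (0.71 in WT, 0.60 in KO; interval of the interaction from -0.51 to 0.28). Ccnd3 did lie below the WT change (-1.22 ± 0.17). E2f5, an E2F family member grouped with the repressors, was the member above it, at 0.82 ± 0.18, and it fell in WT cells with a KO change that did not pass.

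The inhibitors of cyclin-dependent kinases went in both directions among the 5 of 7 that were tested. Cdkn1a, which encodes p21, stood at 88.1 and 97.8 CPM in WT cells at 8 h and at 56.7 and 87.6 CPM at 24 h. In KO cells it went from 474 and 399 to 1220.0 and 1061 CPM. The KO libraries thus lay above all WT libraries at both times and rose further, with a KO change of 1.39 ± 0.30 and an interaction of 1.75 ± 0.42 (adjusted p = 0.0306). That call was not made by DESeq2 (adjusted p = 0.179), with no filter on low counts (0.105), in a fit with the replicate number as a block within each genotype (0.070), or without any single library other than WT 24 h replicate 2 (from 0.081 to 0.131). Cdkn2c (-2.09 ± 0.41) and Cdkn2d (-0.74 ± 0.22), inhibitors of CDK4 and CDK6, lay below the WT change, both rising in both genotypes. Cdkn2d did not pass without WT 8 h replicate 1 (adjusted p = 0.159), nor without KO 24 h replicate 1, KO 8 h replicate 2 or either WT 24 h replicate, nor in a fit of the 8 libraries alone (0.0538).

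Mitosis genes had the lowest median interaction of all lists. Of 64 members, 60 lay below the WT change and 0 above it, with a median interaction of -3.55. Their median change was 5.21 in WT and 1.59 in KO cells, and 63 rose in WT and 53 in KO cells, so that most of these RNAs also increased in KO cells, by less. At 8 h only 1 of the 64 differed between genotypes, being higher in KO cells, and the list's median at 8 h was 0.41. At 24 h all 64 were lower in KO cells, where 20.7% of all genes were. The count ranged from 56 to 62 over the other fits.

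Among genes with a mean CPM of at least 5, more than 3 counts in every group and changes that did not overlap between genotypes, the 10 furthest below the WT change were all genes of the cell cycle, and 6 of them serve the mitotic chromosomes or spindle (Kif4, Cenpf, Nek2, Espl1 and Kif2c, with Mki67, the proliferation marker that coats mitotic chromosomes). Ccna2, encoding cyclin A2, went from 0.772 and 0.762 to 150 and 132 CPM in WT cells and from 1.86 and 3.26 to 8.88 and 12 CPM in KO cells (interaction -5.49 ± 0.46, adjusted p = 1.19e-05). Mki67 went from 3.03 and 2.7 to 621 and 449 CPM in WT cells and from 10.2 and 15.3 to 39.6 and 58.3 CPM in KO cells (-5.60 ± 0.53). In both, the KO libraries were the higher ones at 8 h and the lower ones at 24 h, with no overlap at either time, and the difference at 8 h did not pass the adjusted threshold.

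Kif4, a chromosome-arm motor, had the lowest interaction of these at -6.53 ± 0.82, from 0.110 and 0.117 to 49.3 and 45.7 CPM in WT and from 0.847 and 1.27 to 2.94 and 6.15 CPM in KO cells. It rests on 4 counts over the WT 8 h libraries, so the size of its WT change is poorly fixed. E2f8 (-6.07 ± 1.10), Cenpf (-5.85 ± 0.73), Clspn (-5.72 ± 0.74) and Nek2 (-5.71 ± 0.86) rest on 5 to 14 counts in that group, Kif2c (-5.13 ± 0.81) on 10, and Espl1 (-5.30 ± 0.54) and Pclaf (-5.30 ± 0.72) on 24 and 25. E2f8 did not pass without WT 8 h replicate 1 (adjusted p = 0.0502) or replicate 2 (0.063).

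Mitosis genes with the smallest p were Ncapg2, Kif23 and Incenp. Ncapg2, a condensin II subunit, went from 3.47 and 5.16 to 197 and 160 CPM in WT and from 3.73 and 5.47 to 9.86 and 9.92 CPM in KO cells (interaction -4.27 ± 0.27, adjusted p = 2.19e-07). Kif23, a motor of the central spindle, went from 2.76 and 3.22 to 52.3 and 44.5 CPM in WT cells and stood at 4.69 and 4.58 CPM at 8 h and 4.79 and 6.09 CPM at 24 h in KO cells. Its KO change of 0.23 ± 0.18 did not pass, against a WT change of 4.02 ± 0.18. The promoters of both, printed above, hold TTTGAA close to the start. Bub3, Ccnb2, Cdc25c and Sgo2a did not pass, at -0.17, -2.75, -2.24 and -2.45. Bub3 was already present at 144 ± 6.73 CPM in WT cells at 8 h, and its WT change did not pass either.

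DNA repair genes followed the replication genes. Of 44, 34 lay below the WT change and 0 above it (median -2.10, with medians of 2.42 in WT and 0.65 in KO cells), and the count ranged from 30 to 34 over the other fits. Uhrf1, which maintains DNA methylation behind the fork, went from 18.1 and 17.9 to 757 and 705 CPM in WT and from 11.1 and 12.5 to 39.5 and 41.5 CPM in KO cells (interaction -3.57 ± 0.17, adjusted p = 4.30e-08). Among the 10 members that did not pass were the damage kinases Atm (-0.81) and Atr (-0.24).

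Replication-dependent histone genes rose in 22 of 24 cases in WT cells and in 9 in KO cells, where 24.0% and 18.9% of all genes did. In the interaction 2 of the 24 passed, both below the WT change (8.33%, near the 8.96% of all genes). The median interaction of the list was -2.07, with medians of 4.37 in WT and 2.37 in KO cells. Its values ranged from -9.62 to 2.90, and 19 of the 24 were negative. At 24 h 19 were lower in KO cells, where 20.7% of all genes were. Hist1h4i went from 1.71 and 1.82 to 12.6 and 15.1 CPM in WT and from 2.77 and 2.04 to 3.27 and 3.77 CPM in KO cells (-2.41 ± 0.35, adjusted p = 0.00028). Hist1h3c had 0 counts in both WT libraries at 8 h and 13.8 and 13.0 CPM at 24 h, so its fitted interaction is no measure of size, and it did not pass without KO 8 h replicate 1. Histone genes of a kind are nearly identical in sequence and could share reads, so single members are uncertain.

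Among nucleotide synthesis genes, those of the deoxynucleotide supply differed most. Of 34 genes 17 lay below the WT change and 0 above it (median -0.53). Rrm2 (-4.43 ± 0.38), Tyms (-3.11 ± 0.20) and Tk1 (-3.16 ± 0.19), which make deoxynucleotides, lay below the WT change. The one-carbon enzymes Shmt2 and Mthfd2 had interactions of 0.002 and 0.15 that did not pass. The count ranged from 11 to 22 over the other fits, lowest without the KO libraries numbered 1.

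Cholesterol synthesis genes rose in WT cells and mostly fell in KO cells. Of 24 genes 22 lay below the WT change and 0 above it, with a median interaction of -1.24. In WT cells 17 rose and 0 fell (median change 0.63), where 24.0% and 19.3% of all genes did. In KO cells 14 fell and 1 rose (median -0.68), where 15.6% and 18.9% of all genes did. Of these genes 8 both rose in WT and fell in KO cells. The count ranged from 15 to 23 over the other fits, and was 15 without the KO libraries numbered 2.

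Stard4, a sterol carrier, went from 50.6 and 47.6 to 135 and 110 CPM in WT and from 32.8 and 40.6 to 25.6 and 27.0 CPM in KO cells (-1.80 ± 0.18). Dhcr7, a reductase of the late steps, rose in WT cells by 1.95, and its KO change of 0.14 ± 0.15 did not pass. Hmgcs1, whose promoter is printed above, went from 117 ± 1.67 to 179 ± 26.6 CPM in WT and from 75.4 ± 5.63 to 46.4 ± 6.58 CPM in KO cells (-1.32 ± 0.25).

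Insig1, a feedback regulator of sterol synthesis, fell in KO cells (-1.41) with a WT change of 0.26 that did not pass. Srebf2, encoding the transcription factor that drives the pathway, differed by less, at -0.52 ± 0.14. Of 13 fatty acid synthesis genes 9 lay below the WT change (69.2%, against 8.96% of all genes). The desaturase gene Scd2 reached 593 and 391 CPM from 19 and 19.4 CPM in WT and 73.5 and 77.2 CPM from 15.1 and 19.3 CPM in KO cells (-2.55 ± 0.26), and Fads1 rose in WT cells with a KO change of -0.12 ± 0.13 that did not pass. That count was 5 without WT 24 h replicate 1 and also 5 without the KO libraries numbered 1.

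Glycolysis genes lay below the WT change in 16 of 25 cases (64.0%, against 8.96% of all genes). They lay above it in 1 (4.0%, near the 5.49% of all genes). The median was -0.80 (median change 0.73 in WT and -0.13 in KO cells). Gapdh, a central enzyme of the pathway, went from 1065 and 1045 to 2124 and 2207 CPM in WT and from 901 and 727 to 940 and 958 CPM in KO cells, and its KO change did not pass (interaction -0.82 ± 0.17). Pfkl, a subunit of the rate-setting phosphofructokinase, rose in WT and fell in KO cells, from 162 and 159 to 218 and 223 CPM and from 119 and 104 to 82.7 and 86.2 CPM (-0.86 ± 0.13, adjusted p = 0.000398). Slc16a3, a lactate exporter, had an interaction of -1.82 ± 0.25 and moved in opposite directions as well. The first steps of glucose uptake did not pass: Slc2a1, Slc2a3 and Hk2 had interactions of -0.32, -0.26 and -0.14. Eno2, a second enolase, was the member above the WT change, at 1.19 ± 0.33.

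Of 76 nuclear-encoded genes 6 (7.89%) of the respiratory chain lay below the WT change, near the 8.96% of all genes, with a median of -0.23. At 24 h 39 of the 76 were lower in KO cells, where 20.7% of all genes were. The interval of the interaction was inside 1.5-fold for 34 of the 76. Sdhd, a succinate dehydrogenase subunit, led at -0.84 ± 0.15. The count of 6 was 1 or 2 without any single library other than KO 8 h replicate 2, and 18 without that one. It was 15 in a fit of the 8 libraries alone, 12 with no filter, 17 with the replicate number as a block within each genotype and 1 without the KO libraries numbered 1. Of 12 mitochondrially encoded genes 0 passed by edgeR, 1 had an unadjusted p under 0.05 and the same gene, mt-Nd1 (-0.45 ± 0.16), passed in DESeq2 (adjusted p = 0.0251).

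**Figure D4:**
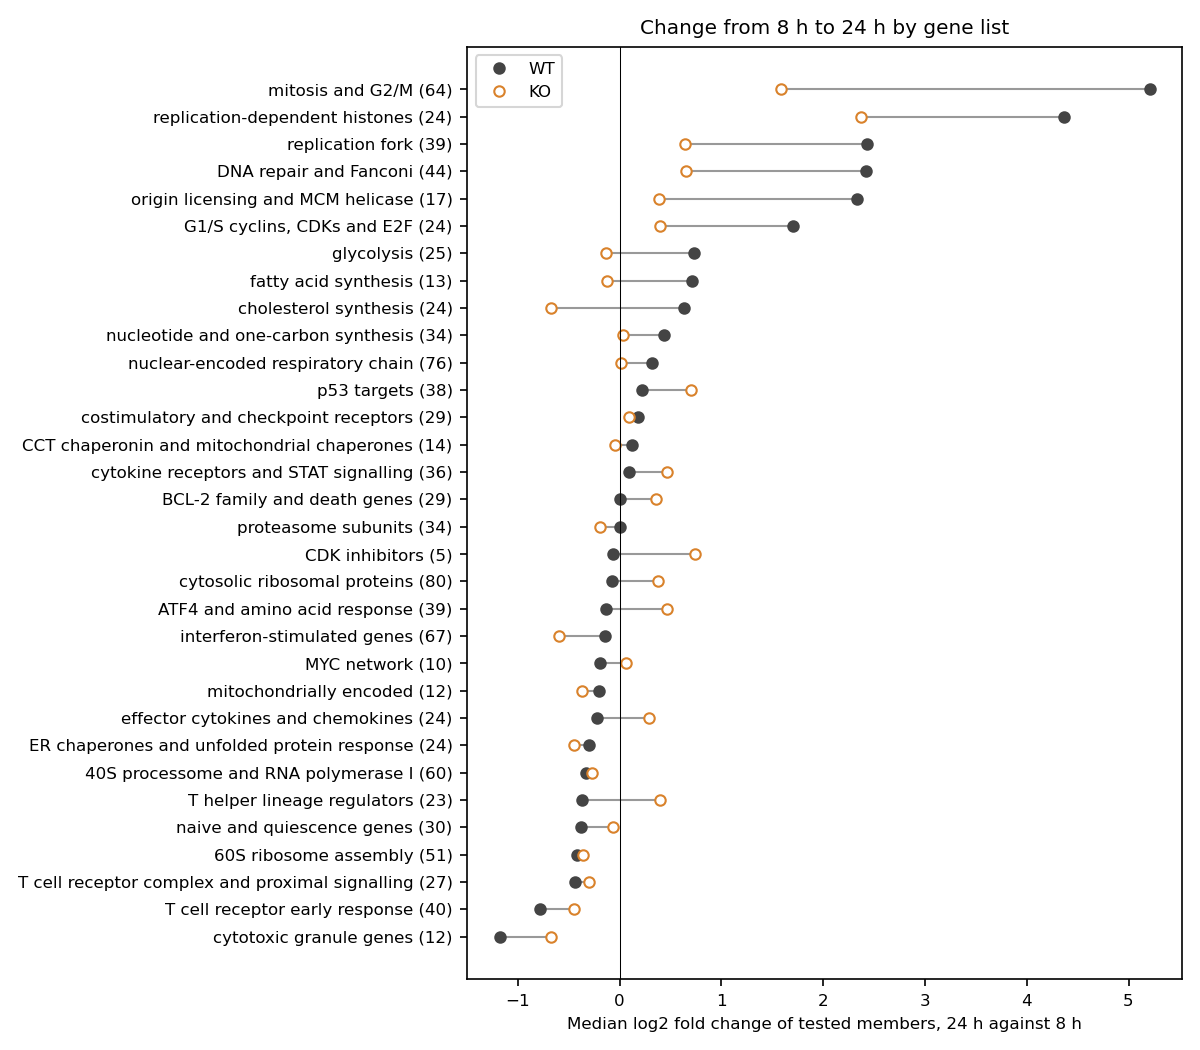
Median log2 change from 8 h to 24 h of each gene list in WT cells (filled grey) and KO cells (open orange), with the number of tested members in parentheses. Origin, fork, G1/S, mitosis and repair lists have WT medians between 1.70 and 5.21 and KO medians between 0.38 and 1.59, cholesterol synthesis has medians on opposite sides of 0, and both ribosome assembly lists have medians between -0.42 and -0.28. The histone list holds genes with 0 counts in a group.

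Genes of ribosome assembly, the process in which Ddx55 and its yeast counterpart are known to act, fell in both genotypes in many cases. Of 60 genes of the 40S processome and RNA polymerase I, 0 passed in the interaction by edgeR or in DESeq2, 5 had an unadjusted p under 0.05, the median was 0.06, and 52 had an interval inside 1.5-fold. In each genotype the list went down, with 37 genes falling in WT (median -0.33) and 29 in KO cells (median -0.28). Over all genes 19.3% fell in WT and 15.6% in KO cells. Of 51 genes of 60S assembly 3 lay above (5.88%, near the 5.49% of all genes) and 1 below the WT change, the median was -0.01, and 34 had an interval inside 1.5-fold. They too fell, 34 in WT and 32 in KO cells, against 19.3% and 15.6% of all genes. Lyar, a nucleolar protein, was the member below, from 265 and 232 to 268 and 267 CPM in WT and from 229 and 181 to 144 and 126 CPM in KO cells (-0.71 ± 0.16). It did not pass without KO 24 h replicate 2 (adjusted p = 0.0508) or WT 8 h replicate 2 (0.0531). The 3 above it (Nop53, Noc3l and Tma16) lay at 0.47 to 0.56, and the count of 3 became 0 without any single library other than KO 8 h replicate 1 (5) or KO 24 h replicate 2 (1).

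Many ribosomal protein genes rose in KO cells. Of 80 genes, 48 rose and 0 fell in KO cells (median 0.38), where 18.9% and 15.6% of all genes did. In WT cells 1 rose and 4 fell (median -0.08), where 24.0% and 19.3% of all genes did. Above the WT change lay 15 (18.8%, against 5.49% of all genes) and below it 0. Rps7 went from 1483 and 1416 to 1092 and 1181 CPM in WT and from 1582 and 1325 to 2056 and 1887 CPM in KO cells, an interaction of 0.79 ± 0.17 (adjusted p = 0.00621). The count of 15 depended on the libraries: it was 49 without KO 8 h replicate 1, and 1, 2, 2, 4, 5 and 8 without WT 24 h replicate 1, WT 8 h replicate 1, KO 24 h replicate 1, WT 8 h replicate 2, KO 8 h replicate 2 and KO 24 h replicate 2. It was 33 in DESeq2, 37 with no filter, 24 without scaling factors, 24 and 56 with the replicate number as a block over all libraries and within each genotype, and 3 without the KO libraries numbered 2. Ribosomal protein genes have many processed pseudogenes with which they could share reads.

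Target genes of p53 gained more, or lost less, in KO cells. Of 38 tested, 17 lay above the WT change (44.7%, against 5.49% of all genes) and 3 below it, with a median of 0.57. They differed at the start of the interval as well, 23 being higher in KO cells at 8 h, where 1.9% of all genes were. At 24 h 28 were higher, where 17.9% of all genes were. Psrc1, a spindle protein gene induced by p53, went from 21.2 and 26.0 to 31.7 and 43.5 CPM in WT and from 151 and 139 to 517 and 500.3 CPM in KO cells (interaction 1.14 ± 0.19, adjusted p = 0.000889). Fas, the death receptor, fell from 24.9 and 32.2 to 18.1 and 22.1 CPM in WT and rose from 48.6 and 47.1 to 132 and 112 CPM in KO cells (1.85 ± 0.19).

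Trp53inp1, a p53-induced regulator of autophagy and death, was the member with the largest interaction, 2.52 ± 0.45. It fell in WT cells from 435 and 656 to 73.6 and 94.1 CPM, while its KO levels of 519 and 791 CPM at 8 h and 607 and 550 CPM at 24 h overlapped. Mdm2, the ubiquitin ligase that limits p53, rose in KO cells from 163 ± 5.87 to 263 ± 17.7 CPM (interaction 0.66 ± 0.13), and Trp53 itself did not pass (0.09 ± 0.12). The 3 members below the WT change were Ddb2 (-1.15 ± 0.18), Gtse1 (-0.93) and Ckap2 (-1.54), of which Gtse1 and Ckap2 also act in mitosis. The count of 17 was 10 with WT 24 h replicate 1 left out, 11 without KO 24 h replicate 1 or 2, KO 8 h replicate 2 or WT 8 h replicate 1 or 2, and 7 and 8 without the KO libraries numbered 1 and 2.

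Genes of the BCL-2 family and of cell death lay above the WT change in 7 of 29 cases (24.1%, against 5.49% of all genes). Below it lay 3 (10.3%, near the 8.96% of all genes). Above it stood the death genes Bbc3 (1.67 ± 0.27), Bax (0.77 ± 0.16), Fas and Bcl2l11 (1.01 ± 0.13), together with the survival genes Mcl1 (0.80 ± 0.14), Cflar and Birc2. Bcl2l11, encoding BIM, fell in WT cells from 144 and 150 to 71.4 and 66.1 CPM and stood at 149 and 147 and then 135 and 143 CPM in KO cells, where its change did not pass. The initiator caspase gene Casp8 (-0.62 ± 0.14) was among the 3 below, a count that was 1 without the KO libraries numbered 2.

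Of 10 genes of the MYC network 3 lay above the WT change (Mxd4, Mxd1 and Myc) and 1 below it. Mxd4, a MAX-binding repressor, went from 13.3 and 20.8 to 72.5 and 71.8 CPM in KO cells and stood at 12.6 and 15.7 and then 10.2 and 13.7 CPM in WT cells (interaction 2.32 ± 0.29, adjusted p = 0.000243). Mxd3, a family member found in dividing cells, went the other way (-2.65 ± 0.53), and rose in both genotypes. Myc itself fell in both, from 914 and 856 to 482 and 475 CPM in WT and from 826 and 701 to 627 and 568 CPM in KO cells (0.53 ± 0.15, adjusted p = 0.0276). The Myc call was lost without any single library other than KO 24 h replicate 2 or KO 8 h replicate 1 (adjusted p from 0.0634 to 0.131). The count of 3 was 1 without KO 24 h replicate 1, either WT 24 h replicate or either WT 8 h replicate.

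Cytokine receptors and STAT genes lay above the WT change in 11 of 36 cases (30.6%, against 5.49% of all genes). They lay below it in 1 (2.78%, under the 8.96% of all genes). Stat5a, which carries the signal of IL-2 and IL-7 receptors, went from 203 and 203 to 253 and 242 CPM in WT and from 227 and 222 to 776 and 719 CPM in KO cells (interaction 1.45 ± 0.12, adjusted p = 1.55e-06). It rose in both genotypes, by 0.29 in WT and by 1.74 in KO cells. Il21r fell in WT and rose in KO cells, from 222 and 262 to 133 and 140 CPM and from 403 and 387 to 576 and 463 CPM (1.23 ± 0.16). Stat5b (0.61), Stat6 (0.75), Il4ra (0.61) and Il15ra (0.89) were also above. Il12rb1, a chain of the IL-12 receptor, was the member below (-0.70 ± 0.15). The count of 11 was 7 without the KO libraries numbered 1.

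Of 30 genes of the naive and quiescent state 11 (36.7%, against 5.49% of all genes) lay above the WT change and 0 below it, with a median of 0.52. Ccr7, the chemokine receptor that guides T cells into lymph nodes, stood at 604 and 620 CPM in WT cells at 8 h and 536 and 592 CPM at 24 h. In KO cells it went from 483 and 443 to 2217 and 1570.0 CPM, above all WT libraries (2.15 ± 0.20, adjusted p = 4.74e-06). Foxo3, a transcription factor of quiescence, went from 87.6 and 103 to 179 and 178 CPM in KO cells, with a WT change of 0.04 ± 0.10 that did not pass. Il7r fell in both genotypes and by less in KO cells, from 85.3 and 79.1 to 11.5 and 13.0 CPM in WT and from 81.5 and 80.4 to 29.4 and 24.4 CPM in KO cells (1.15 ± 0.18).

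The list did not move as one. Klf2, which holds naive cells in circulation, fell in both genotypes with an interaction of 0.30 ± 0.45 that did not pass, and Tcf7 had 0.46 ± 0.20. The count of 11 was 4 without the KO libraries numbered 1 and 5 when WT 24 h replicate 1 was left out. It was 6 without KO 24 h replicate 1 or 2 or WT 8 h replicate 2, and 7 without KO 8 h replicate 1.

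Costimulatory and checkpoint genes lay above the WT change in 10 of 29 cases (34.5%, against 5.49% of all genes). They lay below it in 3 (10.3%, near the 8.96% of all genes). Tnfsf8, the ligand of CD30, fell in WT cells from 380 and 413 to 105 and 115 CPM, and its KO levels of 821 and 743 CPM at 8 h and 710 and 641 CPM at 24 h did not pass for change (interaction 1.63 ± 0.15, adjusted p = 2.78e-06). Tnfrsf9, encoding 4-1BB, fell in both genotypes and by less in KO cells (0.93 ± 0.18). Cd40lg, by which helper T cells activate B cells, fell in both and by more in KO cells, from 176 and 156 to 96.2 and 123 CPM in WT and from 197 and 161 to 30.7 and 31.1 CPM in KO cells (-1.93 ± 0.29). Slamf6 rose in WT and fell in KO cells (-1.83 ± 0.24), and Pdcd1 fell in both and by more in KO cells (-0.66 ± 0.17). The count of 10 was 5 without WT 24 h replicate 1, and 6 without KO 24 h replicate 1 or WT 8 h replicate 1.

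Of 40 early response genes of the T cell receptor 22 fell in WT and 18 in KO cells, where 19.3% and 15.6% of all genes did. Above the WT change lay 8, a larger share than the 5.49% of all genes. Below it lay 2, a smaller share than the 8.96% of all genes. The NF-kB subunit gene Nfkb2 fell in WT cells from 591 and 585 to 420 and 429 CPM and rose in KO cells from 644 and 575 to 1187 and 955 CPM (1.28 ± 0.16, adjusted p = 7.04e-05). Fosl1, an AP-1 subunit gene, fell in both, from 61.6 and 60.2 to 12.7 and 14.3 CPM in WT and from 69.9 and 58.0 to 41.2 and 45.5 CPM in KO cells (1.61 ± 0.22). Batf (-0.65) and Egr3 (-0.53) lay below. The count of 8 was 4 without KO 24 h replicate 1, WT 24 h replicate 1 or WT 8 h replicate 2, 5 without KO 8 h replicate 1, 4 and 5 without the KO libraries numbered 1 and 2, and 17 in a fit of the 8 libraries alone.

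In the receptor complex and its proximal signalling 4 of 27 genes lay above the WT change (14.8%, against 5.49% of all genes). Below it lay 1 (3.7%, under the 8.96% of all genes), and 13 had an interval inside 1.5-fold. Among the 4 above were Cd247 (0.61), a receptor chain, and the negative regulators Ptpn22 (1.01 ± 0.16) and Cblb (0.91 ± 0.17). The count of 4 was 2 without the KO libraries numbered 1. Ptpn22 fell from 396 and 404 to 57.5 and 70.0 CPM in WT and from 489 and 482 to 147 and 166 CPM in KO cells.

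Regulators of helper lineages lay above the WT change in 6 of 23 cases (26.1%, against 5.49% of all genes) and below it in 2 (8.7%, near the 8.96% of all genes). Zbtb7b, the CD4 lineage factor ThPOK, went from 75.4 and 88.3 to 116 and 125 CPM in WT and from 60.6 and 68.5 to 221 and 215 CPM in KO cells (1.20 ± 0.15, adjusted p = 5.85e-05), so that the KO libraries went from below the WT libraries to above them. Gata3, of the type 2 helper lineage, rose in KO cells from 17.7 and 13.3 to 46.7 and 32.4 CPM, with a WT change of 0.07 ± 0.19 that did not pass (1.29 ± 0.26). Its span overlaps 9230102O04Rik on the same strand. Id3 rose in WT and fell in KO cells (-1.11 ± 0.16), and Tbx21, of the type 1 lineage, rose in both and by less in KO cells (-0.93 ± 0.26). The count of 6 was 2 without WT 8 h replicate 1, 3 without the KO libraries numbered 1, and 4 without KO 24 h replicate 1, KO 8 h replicate 1, WT 24 h replicate 2 or WT 8 h replicate 2.

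Of 24 effector cytokine genes 2 passed in the interaction, Xcl1 (1.98 ± 0.41) and Il21, both above the WT change (8.33%, near the 5.49% of all genes), and the median was 0.12. Ccl3 did not pass (-1.03, adjusted p = 0.0601), but did so below the WT change in DESeq2 (0.00776), with no filter, in the 8 libraries alone and with either form of replicate block. Il2 went from 56.6 ± 1.37 to 177 ± 10.3 CPM in WT and from 56.0 ± 8.59 to 166 ± 48.7 CPM in KO cells, an interaction of -0.07 ± 0.24 with an interval from -0.59 to 0.44. Ifng was higher in KO cells at both times, at means of 12.8 ± 3.05 against 2.38 ± 0.46 CPM and then 25.5 ± 4.02 against 2.19 ± 0.41 CPM, and its interaction of 1.12 ± 0.58 did not pass (adjusted p = 0.24). Il21 was close to 0, at 0.216 and 0.0 CPM in WT cells at 24 h. Its call was lost in a fit of the 8 libraries alone (adjusted p = 0.0501) and in 5 of the 8 fits without 1 library. Xcl1 was lost with no filter on low counts (adjusted p = 0.0555). It was also lost without KO 24 h replicate 1, either WT 24 h replicate or WT 8 h replicate 1. Of 12 cytotoxic granule genes 3 lay above, among them Prf1 (1.60 ± 0.37) and Srgn (0.66 ± 0.15), which fell in both genotypes and by less in KO cells, and that count was 1 without WT 24 h replicate 1 or without the KO libraries numbered 2.

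Of 67 interferon-stimulated genes 21 fell in WT and 29 in KO cells, where 19.3% and 15.6% of all genes did. Below the WT change lay 9 (13.4%, against 8.96% of all genes) and above it 1 (1.49%, under the 5.49% of all genes), with a median of -0.34. Ifit2, an antiviral RNA-binding protein gene, rose in WT cells from 20.3 and 19.1 to 28.2 and 26.8 CPM and fell in KO cells from 19.8 and 18.9 to 10.7 and 11.5 CPM (-1.28 ± 0.19, adjusted p = 0.000299). Phf11b (-1.71 ± 0.21) was higher in KO cells at 8 h and lower at 24 h. Its near copies in the genome could share its reads. Eif2ak2, the RNA-activated kinase PKR, rose in WT cells, and its KO change of 0.21 ± 0.17 did not pass. The count of 9 was 4 without KO 24 h replicate 1 or WT 8 h replicate 1, 6 without KO 8 h replicate 2 or WT 24 h replicate 1, 14 in DESeq2 and 19 with no filter.

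The ATF4 pathway answers amino acid shortage and translation stress. Of its 39 genes tested 13 (33.3%, against 5.49% of all genes) lay above the WT change and 0 below it, with a median of 0.48. In KO cells 21 rose and 3 fell, where 18.9% and 15.6% of all genes did. In WT cells 7 rose and 12 fell, where 24.0% and 19.3% of all genes did. At 8 h 1 was higher and 1 lower in KO cells, where 1.9% and 0.746% of all genes were. At 24 h 21 were higher and 4 lower, where 17.9% and 20.7% of all genes were. Ddit3, encoding CHOP, fell in WT cells from 18.8 and 20.3 to 8.46 and 8.99 CPM and rose in KO cells from 26.7 and 25.9 to 56.3 and 56.4 CPM (2.26 ± 0.17, adjusted p = 5.43e-07). The symbol belongs to 2 overlapping gene models, of which the one with more counts was used.

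Slc1a4, a neutral amino acid transporter, fell in WT cells from 13.6 and 14.6 to 11.9 and 8.61 CPM and rose in KO cells from 19.4 and 19.9 to 56.0 and 55.4 CPM (1.97 ± 0.24). Trib3, induced by CHOP, went the same way (2.14 ± 0.36), as did Atf4 itself, from 424 ± 39.5 to 302 ± 5.76 CPM in WT and from 518 ± 71.0 to 740 ± 53.9 CPM in KO cells (1.0 ± 0.23). Of 24 genes of the unfolded protein response 3 lay above (12.5%, against 5.49% of all genes) and 4 below (16.7%, against 8.96%). Xbp1 stood at 0.83 ± 0.17, Sdf2l1 at -1.40 ± 0.16 and Hspa5 at -0.02. Each of these counts was lower without at least 1 single library (WT 24 h replicate 2 for both). The ATF4 count of 13 was 7 without the KO libraries numbered 1 or numbered 2, 8 without KO 24 h replicate 1 or WT 8 h replicate 1, and 21 in a fit of the 8 libraries alone. Proteasome subunits (1 of 34 below, 2.94%) and the CCT and mitochondrial chaperones (1 of 14 below, 7.14%) did not exceed the 8.96% of all genes. They had 20 and 9 intervals inside 1.5-fold, and both calls were lost in several fits without 1 library.

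**Figure D5:**
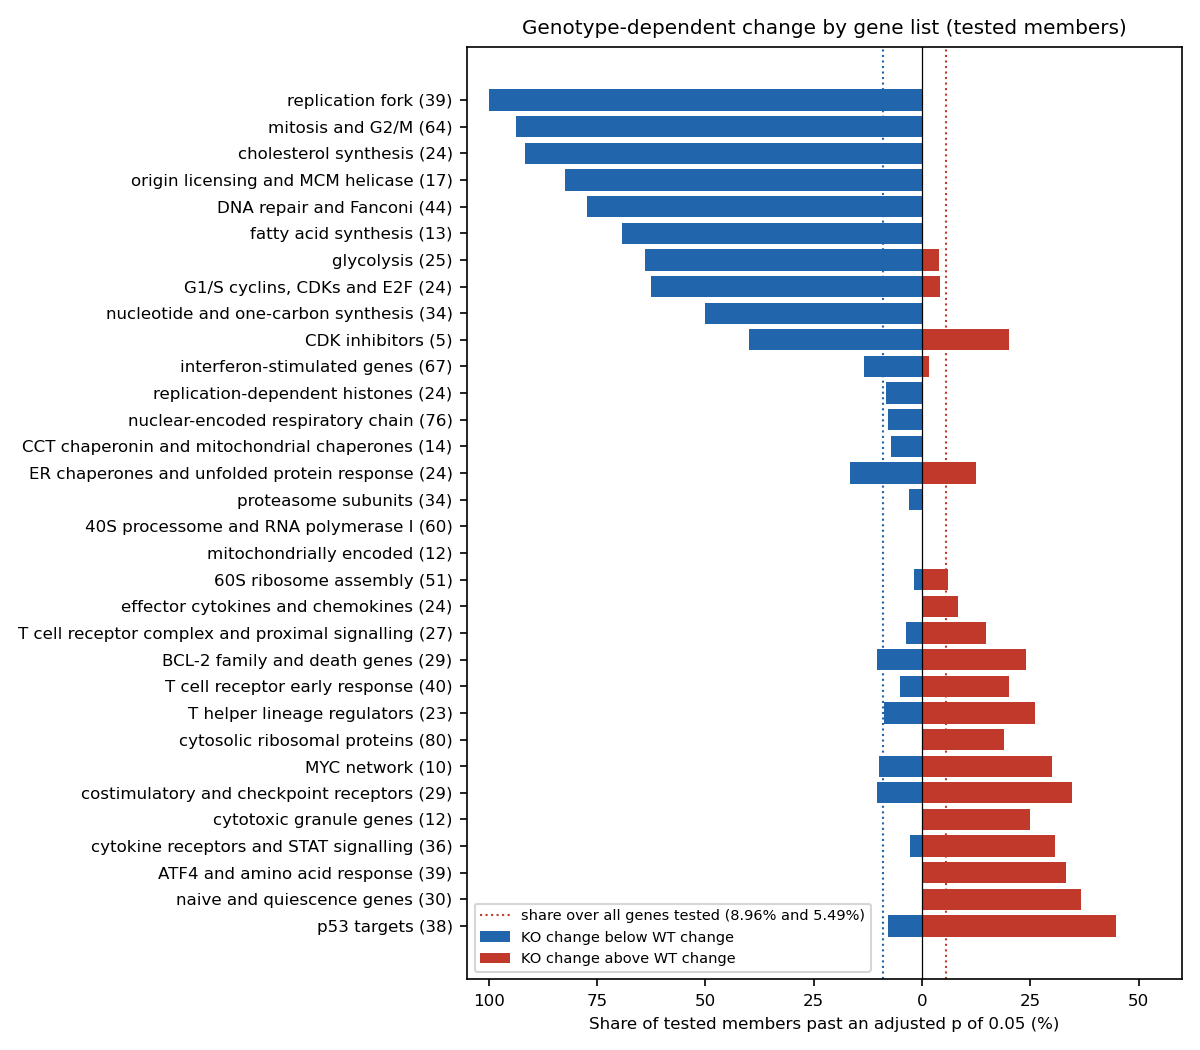
Share of tested members (number in parentheses) of each gene list past an adjusted p of 0.05 in the interaction, in percent, with blue bars to the left for a KO change below the WT change and red bars to the right for one above. Dotted lines mark the shares over all genes tested, 8.96% and 5.49%, and the bars run from replication fork genes (all below) to p53 targets (44.7% above).

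By the same criteria, the 10 genes furthest above the WT change belong to no single pathway. Wnt3, a secreted Wnt ligand, stood at 0.937 and 1.17 CPM in WT cells at 8 h and 1.19 and 0.866 CPM at 24 h. In KO cells it went from 2.94 and 2.32 to 28.1 and 18.8 CPM (interaction 3.19 ± 0.54, adjusted p = 0.000914). The WT libraries did not separate by time, while both KO libraries at 24 h lay far above all others. Serpine2, a secreted protease inhibitor, rose in both genotypes, from 35.3 and 24.5 to 332 and 255 CPM in KO and from 8.38 and 8.56 to 15.7 and 11.1 CPM in WT cells (2.64 ± 0.30). Cacnb3, a calcium channel subunit (2.84 ± 0.46), and Cox6b2, a cytochrome c oxidase subunit known from testis (2.65 ± 0.41), rose in KO cells with a WT change that did not pass.

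In others the WT cells moved and the KO cells did not pass. Mir22hg, the host transcript of a microRNA, fell in WT cells from 15.3 and 12.7 to 1.94 and 1.84 CPM and stood at 19.9 and 21.0 and then 18.5 and 16.4 CPM in KO cells (2.66 ± 0.51). It shares its strand and part of its span with Tlcd2, and it did not pass without the KO libraries numbered 1 (adjusted p = 0.085) or numbered 2 (0.0559). Trp53inp1, described with the p53 targets, did not pass without those numbered 1 (0.117).

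Several genes fell in WT cells and rose in KO cells. The 5 with the largest interaction were Il1r2, Zbtb46, Sox4, Casz1 and Chst11. Sox4, a transcription factor of early lymphocytes, went from 7.66 and 7.21 to 2.37 and 2.38 CPM in WT and from 13.0 and 13.5 to 26.9 and 22.2 CPM in KO cells (2.53 ± 0.29, adjusted p = 3.02e-05). Il1r2, the decoy receptor of IL-1, had an interaction of 3.08 ± 0.53, with WT levels of 5.13 and 3.22 then 1.83 and 1.35 CPM and KO levels of 9.43 and 3.86 then 23.9 and 19 CPM. Casz1, a zinc finger factor, went from 8.77 and 11.4 to 5.39 and 5.68 CPM in WT and from 15 and 14.8 to 49.1 and 43.7 CPM in KO cells (2.50 ± 0.22). Zbtb46 (3.0 ± 0.46) and Chst11 (2.44 ± 0.43) moved the same way.

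The reverse, a rise in WT and a fall in KO cells, was led by Kif15, Angptl2, Spin2c, Pole2 and Cdt1. Kif15, a mitotic kinesin, stood at 54.1 and 48.8 CPM in WT cells at 8 h and 109 and 91.1 CPM at 24 h, and at 78.7 and 57.8 CPM and then 10.3 and 13.3 CPM in KO cells (-3.50 ± 0.26, adjusted p = 2.39e-06). The KO libraries at 24 h lay below all others. Pole2, a DNA polymerase epsilon subunit that overlaps Gm49384 on the same strand, went from 11.3 and 11.4 to 40.7 and 36.5 CPM in WT and from 9.66 and 12 to 5.94 and 7.44 CPM in KO cells (-2.47 ± 0.23). The secreted factor Angptl2 lay at -2.74 ± 0.35 and Spin2c at -2.63 ± 0.36.

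For 10 of the 2265 genes the gap between genotypes reversed, with KO levels higher at 8 h and lower at 24 h, and 0 genes went the other way. Among the largest were Fads2, Arhgap11a, Spc25 and Tns1. Arhgap11a, a gene of dividing cells, went from 4.30 and 5.39 to 108 and 83.0 CPM in WT and from 7.96 and 10.5 to 17.5 and 21.6 CPM in KO cells (-3.22 ± 0.28, adjusted p = 4.63e-06). Spc25, a kinetochore gene, went from 1.05 and 0.996 to 25.7 and 28.5 CPM in WT and from 1.98 and 2.26 to 8.01 and 7.49 CPM in KO cells (-2.85 ± 0.29). In both the libraries of the genotypes did not overlap at either time.

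Among the 2265 genes past the threshold in the interaction, a difference that passed at 8 h and did not pass at 24 h was found for 20 genes higher in KO cells at 8 h and for 5 lower ones. Ncf1, a subunit of the phagocyte NADPH oxidase, went from 4.08 and 3.58 to 36.7 and 32.9 CPM in WT and from 12.3 and 13.2 to 39.2 and 31.5 CPM in KO cells (-1.71 ± 0.22, adjusted p = 8.45e-05), so that the groups overlapped at 24 h. Lmna (-1.51 ± 0.34), Osbpl3 (-1.49 ± 0.32), Mybl1 (-1.33 ± 0.32) and Cdc14a (-1.14 ± 0.30) followed. Inpp5f, Cipc and Txnrd1 were lower in KO cells at 8 h and did not pass at 24 h, with interactions of 0.51, 0.47 and 0.41. Mybl1, Cdc14a, Inpp5f, Cipc and Txnrd1 did not pass in several fits without 1 library, with adjusted p up to 0.168.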

How the data were processed

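RNA of 12 libraries (2 genotypes, 3 times, 2 libraries each) was sequenced after ribosomal RNA depletion with a strand-preserving kit. The authors deposited whole-number counts per gene, not normalized, as the values and the labels show. Per the submitters' processing notes, mm10 was the genome and STAR 2.7.1a and fastp 0.12.4 were among the tools, with no role given. Not given in the sources used here are the counting tool, its annotation release and its use of strand or molecular identifiers. A table of repeat elements was not used. No gene table column was left unmapped (0).

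Counts were tested with edgeR 4.0.16 (limma 3.58.1, R 4.3.3). TMM factors ranged from 0.974 to 1.04 over all 12 libraries. Genes passed filterByExpr (minimum count 10, minimum total 15), which kept 15679 of 54232 and removed 38553. One mean per group was fitted to all 12 libraries with the robust quasi-likelihood method, leaving 6 residual degrees of freedom, and tests were two-sided with Benjamini-Hochberg adjustment and a threshold of 0.05. CPM values are TMM-scaled. Totals of 17333276 to 18831531 counts in each of the 8 libraries set the counting error.

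Genes were named by a rule: Ddx55, the 10 largest interactions in each direction with a mean CPM of at least 5, more than 3 counts in every group and 24 h to 8 h differences that did not overlap between genotypes (predicted genes skipped), up to 3 members of each list with the smallest p, and up to 5 genes of each pattern of direction. Others are named as members of a list. Some genes that the rule would name are not reported here. The comparison, the members and the lists were chosen with earlier results of these data known. Replicate libraries of a group differed by more than sampling noise (chi-square per degree of freedom from 5.5 to 17.1 in the 4 groups). Of 162 named genes, 54 overlap another annotated gene, 6 of them on the same strand. The code was tested on simulated data.

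Alternatives were DESeq2 1.42.0, RLE factors, no scaling factor, no filter, a filter of 1 CPM in 2 libraries, the 8 libraries alone, 2 forms of replicate block and each library left out. Fits without both KO libraries of 1 number were added after seeing the data. Promoters are RefSeq's for GRCm38.p6.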

Additional observations from a re-analysis of the deposited data

Results flagged for a closer look

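The genotypes differed in their change from 8 h to 24 h, by a test of that difference itself, for 2265 genes, and this is what marks each gene below. Groups of 2 libraries are too small to look for a single outlying sample.

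Among genes with a mean CPM of at least 5, more than 3 counts in every group and changes that did not overlap between genotypes, the 10 furthest below the WT change had log2 interactions of -6.53 (Kif4), -6.07 (E2f8), -5.85 (Cenpf), -5.72 (Clspn), -5.71 (Nek2), -5.60 (Mki67), -5.49 (Ccna2), -5.30 (Espl1), -5.30 (Pclaf) and -5.13 (Kif2c). All 10 rose in both genotypes.

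By the same criteria the 10 furthest above it had log2 interactions of 3.19 (Wnt3), 3.08 (Il1r2), 3.0 (Zbtb46), 2.84 (Cacnb3), 2.66 (Mir22hg), 2.65 (Cox6b2), 2.64 (Serpine2), 2.53 (Sox4), 2.52 (Trp53inp1) and 2.50 (Casz1).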

How the results depend on the processing

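The count of 2265 genes lay between 2273 and 2967 in the other fits of all libraries or of the 8 libraries alone, and these shared from 2077 (91.7%) to 2258 (99.7%) of the 2265. Without single libraries it ranged from 1427 to 2092, and it was 1259 without the KO libraries numbered 1. The 860 genes above the WT change ranged from 468 to 801 without single libraries and were 415 and 557 without the KO libraries numbered 1 and 2. The 1405 below it ranged from 944 to 1291 and were 844 without those numbered 1. The 5397 genes changed in KO cells became 2724 and 3223 without the KO libraries numbered 1 and 2. The 415 genes that differed at 8 h were 652 in the 8 libraries alone, 667 in DESeq2 and 862 with no filter, 192 without the KO libraries numbered 2, and 103 to 438 without single libraries. The counts for WT cells (6783) and for 24 h (6041) stayed within 1.5 times in every fit. No direction reversed among the results recomputed.

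Of 122 named genes past the threshold 90 were called in every fit, 28 were lost in at least 1 fit without 1 library, 2 in DESeq2 and 4 with no filter. A group left with 1 library was assumed to vary like the others.

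With the replicate block the interaction gave 2631 genes (2967 with the block within genotype), and the 8 h difference 669 (905). Deviations of same-numbered libraries correlated at 0.397 between WT 8 h and 24 h and 0.423 between KO 8 h and 24 h. With 2 numbers per group and no label that ties them to animals, they were not taken as pairs.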
